A study of Mus musculus with 23 samples.

Results

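The 10 genes described here code for transcription factors that are linked to the development or upkeep of neurons in the arcuate nucleus, at the base of the hypothalamus. They are Nkx2-1, Isl1, Tbx3, Six6, Nhlh2, Bsx, Prox1, Prdm12, Nr5a2 and Foxp2, taken by symbol from a list of names, and they are 10 of the 23373 genes in the expression table. Their levels were read by RNA-seq of 23 neurons, 1 library for each cell, and set beside the levels of 4 peptide genes, Pomc, Kiss1, Npy and Sst. All cells came from 2 young adult male mice of a mixed background that carried Cre at the locus of VGLUT2, a vesicular glutamate transporter (vGLUT2-IRES-Cre), together with a GFP-tagged ribosomal protein behind a stop cassette (loxSTOPlox-L10-GFP). Cre removes the stop cassette, so GFP marks cells in which the Cre driver was active at any time up to collection. Cells with GFP were sorted manually once the arcuate region had been dissected and dissociated. The labels do not say which mouse gave which cell, so the cells form 1 group, and there is no test between cells. Titles give 2 sets whose prefixes are not explained in the labels, title set 1 with 15 cells (cells 1 to 15) and title set 2 with 8 cells (cells 16 to 23). The sets stand apart in several peptide genes. Avp, the vasopressin gene, was at 571 to 5186 FPKM in all 8 cells of set 2, against at most 2.01 FPKM in set 1. Oxt, the oxytocin gene, was at 322 to 3014 FPKM in set 2, against 0 to 30.8 FPKM in set 1. What sets the libraries of the 2 title sets apart was not tested. The stronger relations among the factors and with the 4 peptide genes are therefore also given within each set.

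Transcription factors set the identity of a neuron by binding short DNA motifs near the genes they switch on or off, usually in combination. In the developing hypothalamus, broadly expressed factors mark the whole tuberal region, and factors found in fewer cells separate neurons that use different peptides. In the arcuate nucleus these include neurons with Pomc, which lower food intake, neurons with Npy and Agrp, which raise it, neurons with Kiss1, which drive reproductive hormone release, and neurons with Sst. Values are FPKM (fragments per kilobase of a transcript, relative to all mapped fragments in that cell), which allow levels of genes of different length to be compared, and a gene was taken as present in a cell from 1 FPKM upward.

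Of the 10 transcription factors, 6 reached 1 FPKM in at least 12 of the 23 cells, against 27.7% of all 23373 genes. Nkx2-1 and Tbx3 did so in 22 cells each (exact Clopper-Pearson 95% interval of the share, 78.1% to 99.9%), Isl1 in 20 (66.4% to 97.2%), Bsx in 14 (38.5% to 80.3%), and Six6 and Nhlh2 in 13 each (34.5% to 76.8%). Prox1 and Prdm12 followed with 9 cells each (19.7% to 61.5%), then Nr5a2 with 5 (7.46% to 43.7%) and Foxp2 with 1 (0.11% to 21.9%). These intervals cover counting error over cells only.

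**Figure D1:**
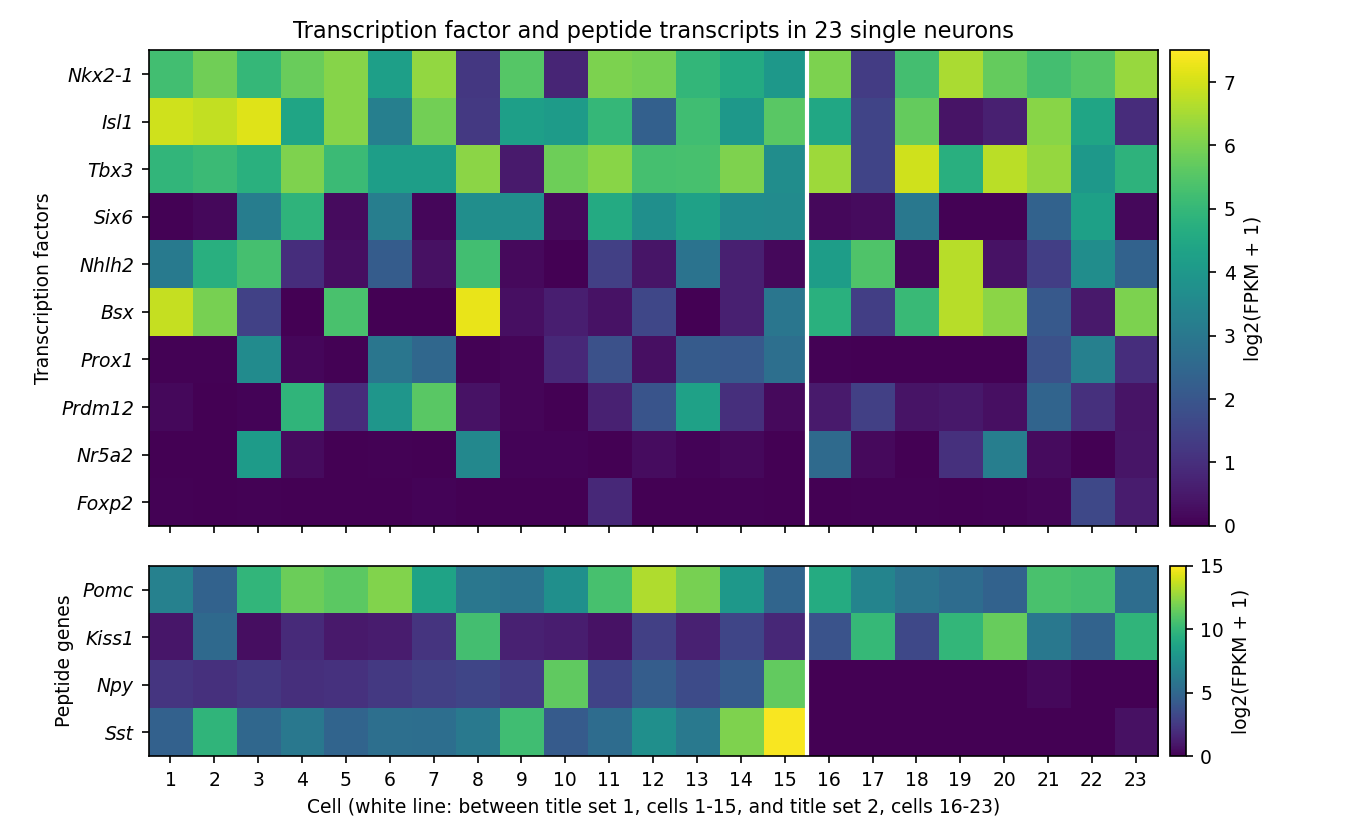
Level of the 10 transcription factors (upper panel, rows) and 4 peptide genes (lower panel) in each of the 23 cells (columns), as log2(FPKM + 1), with a colour scale for each panel. The upper 3 rows are bright in nearly every cell, the middle rows alternate between bright and dark cells, and Npy and Sst are dark in all 8 cells of title set 2.

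Nkx2-1, Tbx3 and Isl1 formed the broadly present group. Nkx2-1, a homeodomain factor that specifies the ventral hypothalamus, had a median of 44.6 FPKM (locus chr12:56531935-56536908, minus strand, mm10). Its lowest value was 0.713 FPKM in cell 10 and its highest 93.1 FPKM in cell 19. Apart from cell 10, cells 8 and 17 were low, at 1.32 and 1.52 FPKM, and the other 20 cells had at least 10 FPKM.

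Tbx3, a T-box factor needed to keep arcuate peptide neurons in their mature state in mice, had a median of 33.8 FPKM (chr5:119670669-119684601, plus strand). Its lowest value was 0.444 FPKM, in cell 9, and its highest 123 FPKM, in cell 18. Cells 9 and 17 were the only cells under 10 FPKM, and the low cells of Tbx3 and Nkx2-1 had only cell 17 in common. That cell also had the fewest genes detected, 4049 at 1 FPKM, against a median of 7079. Whether its low values belong to the cell or to the library was not tested.

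Isl1, a LIM-homeodomain factor required for Pomc expression in mouse development, had a median of 20.5 FPKM (chr13:116298270-116309688, minus strand) and the widest range of this group. Cells 3, 1 and 2 held 139, 122 and 111 FPKM, and cells 19, 20 and 23 held 0.325, 0.587 and 0.931 FPKM. The 15 cells of title set 1 were all at 1 FPKM or more, and 5 of the 8 cells of title set 2 were.

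Six6, Bsx and Nhlh2 were absent or near absent in some cells and clearly present in others, with a gap between the levels for Six6 and graded levels for Bsx and Nhlh2. Six6, a homeodomain factor of the eye, pituitary and ventral hypothalamus (chr12:72939945-72944899, plus strand), had a median of 7.05 FPKM and a highest value of 28.2 FPKM in cell 4. All 13 cells counted for Six6 had at least 4.13 FPKM, and the other 10 had at most 0.167 FPKM. For Six6, Bsx, Prox1 and Prdm12, low FPKM values lay on equal steps after correction for depth. This did not hold for Isl1, Nhlh2, Nr5a2 and Foxp2, and Nkx2-1 and Tbx3 had 3 and 2 low values, too few to judge. No steps are given for these 6 factors. Counted in such steps, the 10 low cells of Six6 held no more than 4, against at least 56 in the 13 others. 4930447C04Rik lies on the opposite strand and shares exon sequence with Six6, and the library kit is not stated to keep strand, so reads of the pair cannot be told apart by strand. In cells 20 and 16, where Six6 had 0.0242 and 0.125 FPKM, 4930447C04Rik had 33.6 and 23.2 FPKM. Tbx3, Prox1 and Prdm12 also share exon sequence with opposite-strand genes, Tbx3os1, Prox1os and Gm13425. These are not in the expression table, so their reads cannot be looked at separately.

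Bsx, a homeodomain factor that drives Agrp and Npy expression in the mouse arcuate nucleus (chr9:40874127-40877972, plus strand), had a median of 2.01 FPKM. It was listed at 0 in cells 4, 6, 7 and 13, and cells 8, 1 and 19 were the highest with 151, 115 and 102 FPKM. In 9 cells Bsx had at least 10 FPKM. Of the 14 cells counted for it, cells 3, 12, 17 and 21 rested on 9, 6, 7 and 8 steps, so 10 cells remain when at least 10 steps are asked for.

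Nhlh2, a basic helix-loop-helix factor whose loss causes obesity and low fertility in mice (chr3:102010145-102015492, plus strand), had a median of 1.66 FPKM and a highest value of 102 FPKM in cell 19. Cells 17, 3, 8 and 2 had 41.9, 38.0, 36.3 and 25.7 FPKM, and cell 10 was listed at 0. Its 13 cells came from both title sets, 7 of 15 cells in set 1 and 6 of 8 in set 2.

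Prox1, Prdm12, Nr5a2 and Foxp2 were present in the fewest cells. Prox1, a homeodomain factor that helps progenitor cells leave the cell cycle (chr1:190121777-190170680, minus strand), ranged from 0.00999 FPKM in cell 18 over a median of 0.227 to 11.3 FPKM in cell 3. Cells 22, 6 and 15 followed with 8.64, 6.65 and 5.63 FPKM. Only cell 3 passed 10 FPKM. Cells 23 and 10 were just under 1 FPKM, at 0.99 and 0.804 FPKM, and rested on 49 and 52 steps.

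Prdm12, a zinc-finger factor known from pain-sensing neurons and needed for Pomc expression in mice (chr2:31640037-31655795, plus strand), was listed at 0 in cells 2 and 10 and had a median of 0.465 FPKM. Cells 7, 4, 13 and 6 stood above the rest with 46.8, 29.0, 18.7 and 14.3 FPKM. Cells 21, 12 and 17 followed with 4.39, 2.87 and 1.65 FPKM. The last pair at the 1 FPKM limit, cells 22 and 14, had 1.04 and 1.01 FPKM on 8 and 6 steps.

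Nr5a2, a nuclear receptor linked to kisspeptin neurons in mice (chr1:136843584-136960448, minus strand), was listed at 0 in 7 cells and had a median of 0.0523 FPKM. Cells 3, 8, 20, 16 and 19 held 16.5, 10.3, 8.22, 5.03 and 1.04 FPKM of it. Foxp2, a forkhead factor (chr6:14901349-15441977, plus strand), reached 2.07 FPKM in cell 22 alone and had a median of 0.0193 FPKM. Cells 11 and 23 had 0.807 and 0.485 FPKM of Foxp2, and each of the other cells was under 0.1 FPKM.

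**Figure D2:**
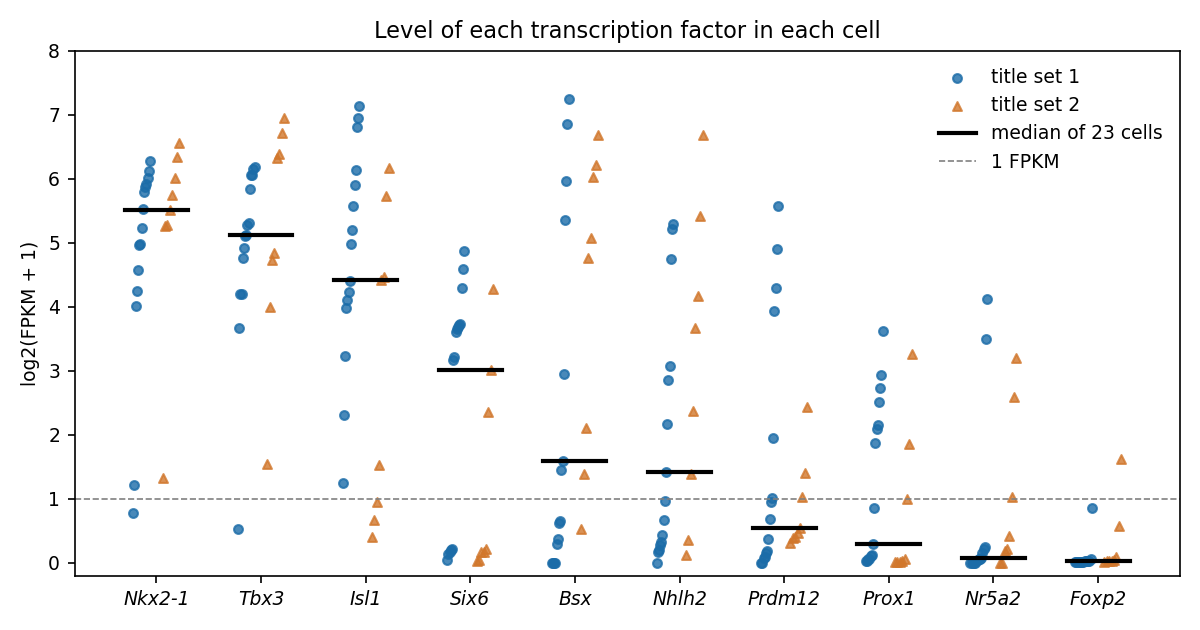
Level of each transcription factor as log2(FPKM + 1), 1 point per cell, circles for title set 1 and triangles for title set 2, with black bars at the median of 23 cells and a dashed line at 1 FPKM. Genes are ordered by median; Six6 splits into cells at 4.13 FPKM or more and cells at 0.167 FPKM or less.

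In the order of medians, neighbours often changed places from cell to cell. Nkx2-1 was above Tbx3 in 12 of 23 cells, Tbx3 above Isl1 in 15, Six6 above Bsx in 12, Bsx above Nhlh2 in 14 and Nhlh2 above Prdm12 in 12. Among neighbours in this order, the pair that changed places in the fewest cells was Isl1 and Six6, with Isl1 the higher in 20 of 23.

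The factors combined in nearly as many ways as there were cells. At 1 FPKM the 23 cells showed 21 distinct combinations of the 10 genes. Cells 1 and 2 shared Nkx2-1, Isl1, Tbx3, Nhlh2 and Bsx, and cells 6 and 13 shared Nkx2-1, Isl1, Tbx3, Six6, Nhlh2, Prox1 and Prdm12. No other combination occurred in more than 1 cell. At 10 FPKM there were 16 combinations. How many combinations other sets of 10 genes would give was not tested.

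Nkx2-1 and Tbx3 were together in 21 cells, and Nkx2-1, Isl1 and Tbx3 in 18. The exceptions for the trio were cell 10, without Nkx2-1, cell 9, without Tbx3, and cells 19, 20 and 23, without Isl1. The median cell had 6 of the 10 factors at 1 FPKM and 4 at 10 FPKM. Of all 23373 genes, the median cell had 7079 at 1 FPKM. Cell 10 had the fewest at 1 FPKM, Isl1 and Tbx3, and cells 3, 21 and 22 had 8 each. The number per cell had a Spearman rho of -0.25 with the relative depth of the library and 0.20 with the number of genes detected (23 cells).

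Pomc was the peptide gene with the clearest relation to these factors. Pomc codes for the precursor of melanocyte-stimulating hormone and was at 1 FPKM or more in all 23 cells, from 25.5 FPKM in cell 2 over a median of 259 to 9534 FPKM in cell 12. Whether the lowest of these values belong to the cell or to the library was not tested, so they are not read as expression by the cell. A Spearman rho of at least 0.5 in size was found with 3 of the 10 factors, Prdm12, Six6 and Bsx, against 3.4% of the 10017 genes at 1 FPKM in at least 5 cells. All such values are descriptions over 23 cells that share mice, title sets and differing depth, and cells are not replicates.

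Prdm12 had the strongest relation, with a rho of 0.70 over 23 cells, 0.69 in title set 1 and 0.83 in title set 2. It ranked 7 of 10017 genes by rho with Pomc, and leaving out any cell gave 0.66 to 0.77. The 4 cells with the most Prdm12, cells 7, 4, 13 and 6, held 412, 3214, 3815 and 4663 FPKM of Pomc. Cell 12, highest in Pomc, had 2.87 FPKM of Prdm12, and cell 3, with 922 FPKM of Pomc, had 0.0569 FPKM of Prdm12.

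Six6 had a looser relation to Pomc, with a rho of 0.55 over 23 cells, 0.41 in title set 1 and 0.71 in title set 2. Cells 12, 6, 13 and 4, the highest in Pomc, had 12.2, 8.29, 18.6 and 28.2 FPKM of Six6. Cell 5, with 2378 FPKM of Pomc, had 0.163 FPKM of Six6, and cell 15, with 28.1 FPKM of Pomc, had 11.2 FPKM of Six6. Its rho was at 0.5 or more in 1 of 8 other settings of the calculation, title set 2 alone, and was 0.414 to 0.499 in the other 7, so this call depends on the setting. Prox1 was just under the limit at 0.48.

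Bsx ran the other way, with a rho of -0.60 over 23 cells, -0.51 in title set 1 and -0.86 in title set 2. By rho with Pomc it ranked 22 from the bottom of 10017 genes. In cells 4, 6 and 13, with 3214, 4663 and 3815 FPKM of Pomc, Bsx was listed at 0. In cells 8, 1, 19, 20 and 23, the cells with 151, 115, 102, 73.0 and 64.1 FPKM of Bsx, Pomc was 60.9, 96.7, 39.0, 25.6 and 40.5 FPKM. Cell 5 held both, with 40.0 FPKM of Bsx and 2378 FPKM of Pomc.

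**Figure D3:**
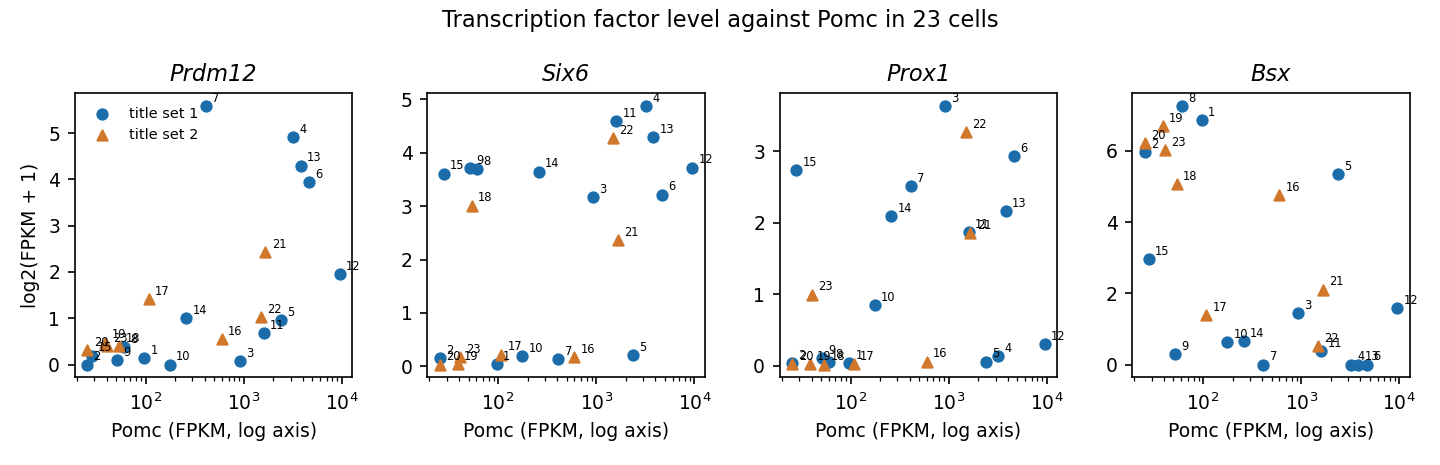
Level of Prdm12, Six6, Prox1 and Bsx (log2(FPKM + 1)) against Pomc (FPKM, log axis), 1 numbered point per cell, circles for title set 1 and triangles for title set 2. The cells with 10 FPKM or more of Prdm12 all have at least 412 FPKM of Pomc, and Bsx is listed at 0 in cells 4, 6, 7 and 13.

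Nkx2-1, Tbx3 and Isl1, the broadly present factors, had rho values with Pomc of -0.01, 0.10 and 0.17. Isl1 differed in sign between the title sets, with -0.25 in set 1 and 0.81 in set 2. Nhlh2, Nr5a2 and Foxp2 had -0.03, 0.01 and 0.05. Over the 10 factors the median rho with Pomc was 0.08, against 0.04 over all genes at 1 FPKM in at least 5 cells.

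The sequence upstream of Pomc is shown because these relations centre on it, next to that of Bsx, which had a negative rho with it, and those of Isl1 and Kiss1, a pair described further on. Each line holds the 250 bases before the transcript start, read 5′ to 3′ on the gene's strand from RefSeq promoter windows of GRCm38.p6. Capitals mark matches on either strand to any of 5 short motifs. These are TAAT, the core of many homeodomain sites, CAAGTG for NKX2 factors, AGGTGT for T-box factors, CAGCTG for basic helix-loop-helix factors such as Nhlh2, and AAGGTCA for NR5A receptors. The windows are chr12:3954695-3954944 on the plus strand for Pomc, chr9:40873877-40874126 on the plus strand for Bsx, chr13:116309689-116309938 on the minus strand for Isl1 and chr1:133326962-133327211 on the plus strand for Kiss1.
Pomc: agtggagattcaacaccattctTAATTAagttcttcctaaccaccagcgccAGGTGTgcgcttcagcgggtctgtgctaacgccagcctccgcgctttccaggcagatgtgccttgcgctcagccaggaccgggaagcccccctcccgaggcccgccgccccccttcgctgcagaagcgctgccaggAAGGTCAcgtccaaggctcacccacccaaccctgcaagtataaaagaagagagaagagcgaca
Bsx: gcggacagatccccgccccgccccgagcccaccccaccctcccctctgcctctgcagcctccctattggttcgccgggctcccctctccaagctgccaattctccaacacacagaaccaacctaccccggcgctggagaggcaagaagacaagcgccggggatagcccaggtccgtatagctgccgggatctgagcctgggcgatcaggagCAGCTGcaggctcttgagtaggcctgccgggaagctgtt
Isl1: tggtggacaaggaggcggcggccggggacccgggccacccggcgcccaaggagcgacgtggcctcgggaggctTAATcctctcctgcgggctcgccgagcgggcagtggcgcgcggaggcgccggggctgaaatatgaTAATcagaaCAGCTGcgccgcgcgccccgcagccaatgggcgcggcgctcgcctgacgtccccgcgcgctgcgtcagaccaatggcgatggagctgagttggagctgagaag
Kiss1: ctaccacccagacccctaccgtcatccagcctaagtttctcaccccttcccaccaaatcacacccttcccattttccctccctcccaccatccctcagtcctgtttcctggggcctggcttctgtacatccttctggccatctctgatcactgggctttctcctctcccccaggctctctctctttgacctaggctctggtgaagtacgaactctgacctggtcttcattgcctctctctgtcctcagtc
The Pomc window held TAAT at 2 overlapping places, AGGTGT at 1 and AAGGTCA at 1. Of all 32851 promoter windows of this length, 54.9% held TAAT, 11.8% AGGTGT and 4.08% AAGGTCA. Bsx had 1 CAGCTG, a motif in 13% of windows, Isl1 had 2 TAAT and 1 CAGCTG, and the Kiss1 window held none of the 5. CAAGTG was in 11.6% of windows and, among the windows of the peptide genes and of the 8 transcription factors with an entry, it was in that of Prox1. A match of letters is not a measured binding site.

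Kiss1 codes for kisspeptin, and 5 cells held far more of it than the others. Cells 20, 8, 17, 19 and 23 had 2963, 1485, 1078, 978 and 895 FPKM, and the next cell, cell 21, had 62.5 FPKM. Tac2, the neurokinin B gene that arcuate kisspeptin neurons also use, was at 1421, 1245, 1814, 1206 and 67.0 FPKM in these cells. Of the 10 factors, Isl1 alone had a rho with Kiss1 of at least 0.5 in size, against 4.59% of all genes tested.

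Isl1 had a rho of -0.55 with Kiss1, -0.45 in title set 1 and -0.74 in title set 2. The rho was -0.48 with ranks centred within title sets and -0.33 with the number of genes detected regressed out, both short of 0.5 in size. The 5 cells highest in Kiss1 were the 5 lowest in Isl1. Cells 20, 8, 17, 19 and 23 had 0.587, 1.36, 1.88, 0.325 and 0.931 FPKM of Isl1, and the next lowest, cell 12, had 3.97 FPKM. This ordering was noticed in the values and was not tested. Below 100 FPKM of Kiss1 the relation was loose. Cells 2 and 21, with 33.3 and 62.5 FPKM of Kiss1, held 111 and 70.6 FPKM of Isl1.

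The other factors varied among the 5 cells high in Kiss1. Bsx was at 73.0, 151, 1.63, 102 and 64.1 FPKM in cells 20, 8, 17, 19 and 23, so it was high in all but cell 17. Nhlh2 was at 0.283, 36.3, 41.9, 102 and 4.16 FPKM, and Nr5a2 at 8.22, 10.3, 0.133, 1.04 and 0.342 FPKM in the same order of cells. Their rho values with Kiss1 over 23 cells were 0.45, 0.30 and 0.40. In title set 1 these were 0.15, -0.007 and 0.17, and in title set 2 they were 0.33, 0.26 and 0.48. Kiss1 itself differed between the sets, with a median of 1.58 FPKM in set 1 and 479 FPKM in set 2.

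Nr5a2 was also found outside these cells, in cells 3 and 16, which had 16.5 and 5.03 FPKM of it and 0.442 and 13.2 FPKM of Kiss1. Both cells held much Pdyn, the dynorphin gene, at 1031 and 878 FPKM. Over 23 cells Nr5a2 had a rho of 0.62 with Pdyn and 0.60 with Tac2. Bsx had 0.51 with Pdyn and 0.31 with Tac2. Tac2 reached 1 FPKM in 3 of 15 cells of title set 1 and in all 8 of set 2. Nr5a2 did so in 5 of 23 cells, so its rho mostly ranks very low levels. Within-set values are not given for these pairs, so a relation cannot be told apart from a difference between the sets.

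**Figure D4:**
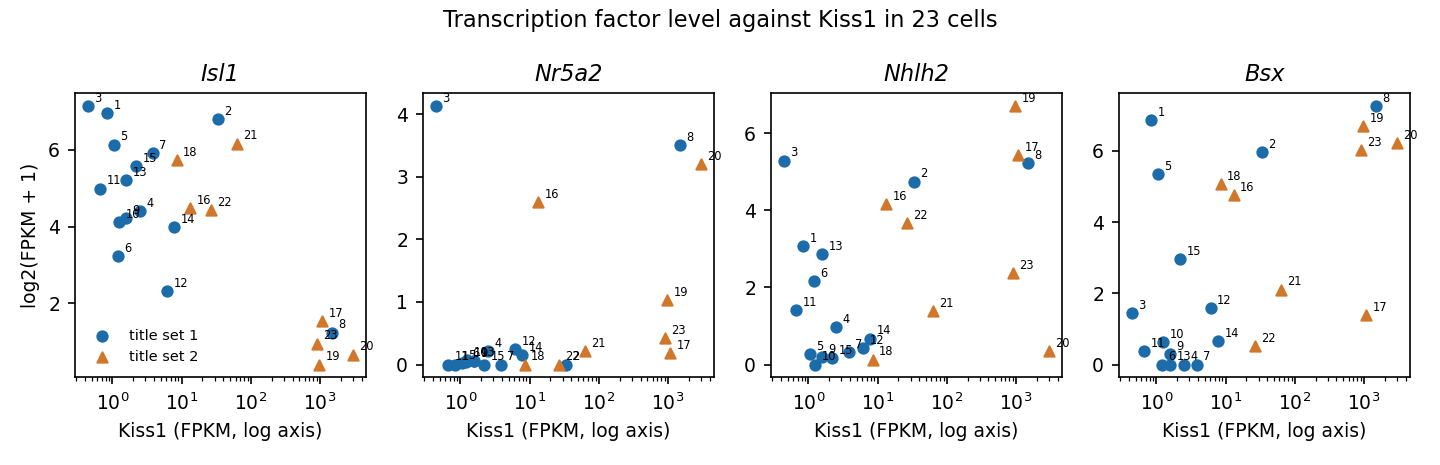
Level of Isl1, Nr5a2, Nhlh2 and Bsx (log2(FPKM + 1)) against Kiss1 (FPKM, log axis), 1 numbered point per cell, circles for title set 1 and triangles for title set 2. The 5 cells at 895 FPKM of Kiss1 or more lie at the bottom of the Isl1 panel, all at 1.88 FPKM or less.

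Npy and Sst also differed between the title sets. Npy was at 3.06 FPKM or more in all 15 cells of title set 1 and was listed at 0 in 7 of the 8 cells of title set 2, with 0.243 FPKM in cell 21. Sst was at 18.6 FPKM or more in every cell of set 1 and listed at 0 in 7 cells of set 2, with 0.608 FPKM in cell 23. A relation with these genes over 23 cells therefore cannot be told apart from a difference between the sets, and only in set 1 did they pass 1 FPKM. Whether the low values that the cells of set 1 share belong to the cells or to the libraries was not tested.

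High Npy was found in cells 15 and 10, with 2660 and 2539 FPKM, and the next cell, cell 12, had 20.6 FPKM. These were also the cells with Otp, a homeodomain factor of Agrp neurons, at 17.8 and 62.6 FPKM, and with the most Agrp, at 433 and 39.7 FPKM. In cells 15 and 10, Bsx was at 6.73 and 0.548 FPKM, Nkx2-1 at 15.1 and 0.713 FPKM, and Isl1 at 46.4 and 16.2 FPKM. Six6 differed between them, at 11.2 and 0.147 FPKM. None of the 10 factors reached a rho of 0.5 in size with Npy, against 4.42% of all genes tested, and within set 1 the values furthest from 0 were -0.49 for Isl1 and -0.48 for Nkx2-1. Apart from cells 15 and 10, the cells of set 1 held 3.06 to 20.6 FPKM of Npy, so these rho values mostly rank low levels.

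Sst, the somatostatin gene, was highest in cells 15, 14, 9 and 2, with 29792, 4394, 1342 and 903 FPKM. Six6 was at 11.2, 11.5, 12.1 and 0.119 FPKM in these cells. The first 3 of them also had Isl1 at 46.4, 14.8 and 17.7 FPKM, and cell 2 had 111 FPKM. Foxp2 was the factor past the limit with Sst, 1 of 10, with a rho of -0.55 over 23 cells and -0.44 in title set 1. The share was 4.22% of the genes at 1 FPKM in at least 5 cells, a set that Foxp2 is not part of. Foxp2 was under 1 FPKM in 22 of 23 cells, so its rho with Sst ranks very low levels. With values under 1 FPKM set to 0 it was -0.25.

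Among the 45 pairs of factors, 3 had a rho of at least 0.5 in size, or 6.67%, and all 3 were negative and held Bsx. For pairs of a factor with any other gene at 1 FPKM in at least 5 cells the share was 2.64%. Bsx and Prox1 had a rho of -0.62 (-0.56 in title set 1 and -0.52 in title set 2). Bsx and Six6 had -0.58 (-0.37 and -0.76), and Bsx and Prdm12 had -0.54 (-0.58 and -0.74).

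At 10 FPKM no cell held both Bsx and Prdm12. Bsx alone passed this level in 9 cells, Prdm12 alone in 4, and neither did in 10. How often other genes found in as few cells share no cell was not tested. Six6 and Bsx met once, in cell 8, which held 11.9 FPKM of Six6 and 151 FPKM of Bsx, and each was alone in 8 cells. At 1 FPKM Bsx and Prdm12 were together in cells 12, 17 and 21. The highest positive values were 0.46 for Six6 with Prox1 and 0.37 for Nhlh2 with Nr5a2, and Isl1 with Nr5a2 had -0.49.

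**Figure D5:**
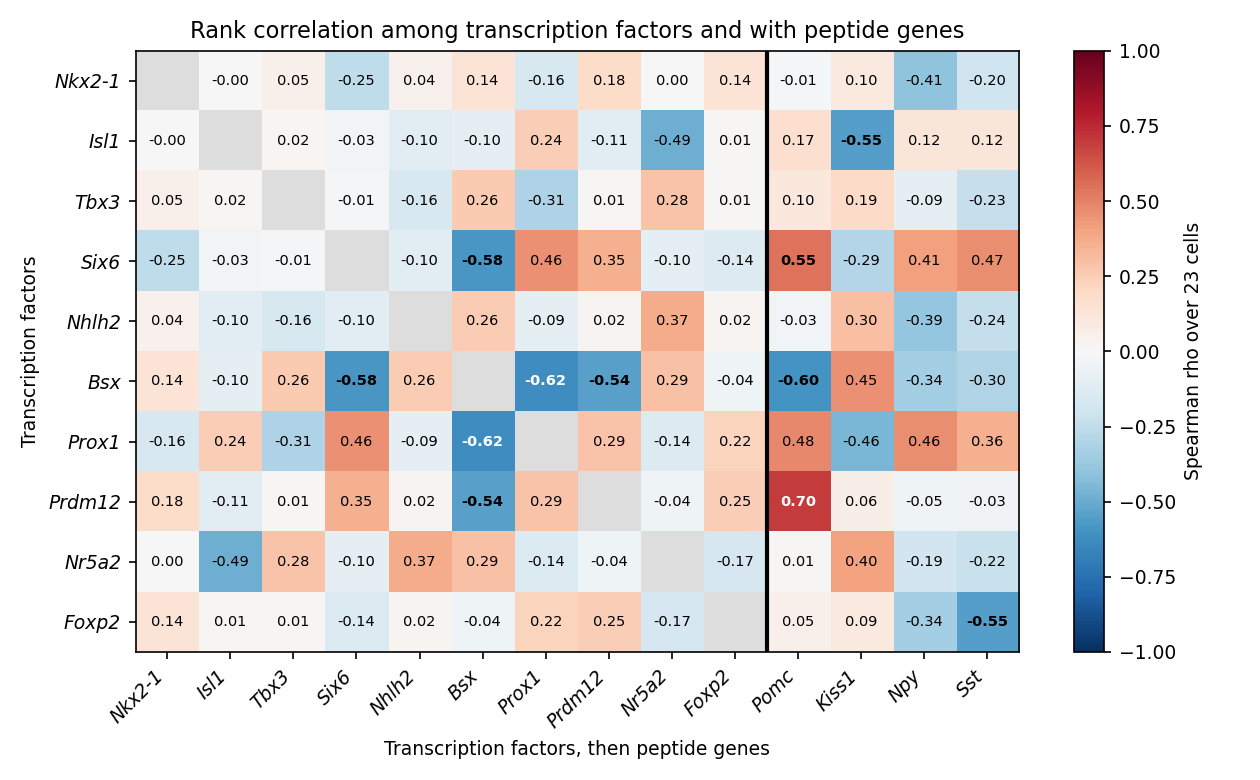
Spearman rho over 23 cells for each pair of transcription factors (left of the black line) and for each factor with the 4 peptide genes (right of it), printed in each square and coloured from -1 to 1, in bold at 0.5 or more in size. The dark blue squares in the Bsx row are Six6, Prox1, Prdm12 and Pomc, and the darkest red square is Prdm12 with Pomc.

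Related transcription factors gave a few further values. Of 9 close relatives of the 10 genes, 5 reached 1 FPKM in any cell and 2 did so in at least 12. Of all 23373 genes, 27.7% did so in at least 12 cells. The share of all genes at 1 FPKM in any cell was not taken, so such counts for this and the later lists have no share beside them. Six3, the relative of Six6, was at 1 FPKM or more in 17 cells, with a median of 8.63 and a highest value of 23.8 FPKM in cell 7. Its rho with Pomc, 0.78, was the highest of all 10017 genes, and its rho with Six6 itself was 0.22. In cells 20, 8, 17, 19 and 23, high in Kiss1, Six3 was at 0.105, 0.195, 0.36, 0.145 and 0.0691 FPKM. Foxp4 and Foxp1, relatives of Foxp2, reached 1 FPKM in 16 and 10 cells, with highest values of 6.41 and 2.33 FPKM. Prox2 did so in 2 cells and Tbx2 in 1, and Nkx2-4, Isl2, Nhlh1 and Nr5a1 in none.

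Of 20 other factors of the tuberal hypothalamus, 8 reached 1 FPKM in any cell and 0 did so in at least 12. Sox2 reached it in 9 cells, Sox14 in 7, Sox3 in 6, Insm1 in 4, Lhx2 in 3 and Otp in 2. Sox14 was high in cells 19, 23, 20, 8 and 9, at 51.9, 40.1, 36.9, 33.3 and 26.7 FPKM. Cell 9, the cell with the least Tbx3, was also the one with Fezf1, at 60.5 FPKM, and it held 26.7 FPKM of Lhx5. Of 19 factors of other hypothalamic nuclei, 4 reached 1 FPKM in any cell. Lhx5 did so in 10 cells, with 79.0 FPKM in cell 19, and its rho was 0.53 with Bsx and -0.68 with Pomc. Tcf7l2 did so in 9 cells, Sim1 in cell 3 at 9.55 FPKM and Lhx9 in cell 23 at 12.7 FPKM.

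Of 15 broadly neuronal factors, 11 reached 1 FPKM in any cell and 3 in at least 12. Among the 11 were Peg3 in 23 cells, Sox11 in 12, Zfhx3 in 11, Tshz2 in 10 and Zfhx4 in 9. Of 12 hormone-responsive factors, 11 reached 1 FPKM in any cell and 7 in at least 12. Nr4a1 did so in 22 cells, Thra and Stat3 in 19 each, Nr3c1 in 15, and Pgr, the progesterone receptor gene, in 14. Esr1, the estrogen receptor alpha gene, was low, with at most 3.69 FPKM, and had a rho of 0.78 with Bsx and -0.62 with Six6.

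For each factor, the 3 genes with the highest rho over 23 cells were taken from genes at 1 FPKM in at least 5 cells whose locus spans at least 300 bp and does not overlap that of the factor. For Prdm12 they were Slc35f3 (0.82), Ofd1 (0.73) and Pomc (0.70), and for Bsx they were Zfp420 (0.81), Esr1 (0.78) and Nell1 (0.77). Isl1 was nearest to Mfsd11 (0.82), Gpkow (0.81) and Carkd (0.78), Nkx2-1 to Atg13 (0.77), Gm129 (0.71) and Pex6 (0.70), and Tbx3 had Gm16065 (0.69) and Gfpt1 (0.67) in its list. Six6 was nearest to Idi1 (0.75), Ugdh (0.74) and Ablim1 (0.74), and Prox1 to Egfem1 (0.74), Fah (0.72) and Mina (0.71). Nhlh2 was nearest to 1110004F10Rik (0.79), Dpcd (0.72) and Nmnat3 (0.67), Nr5a2 to Glt8d1 (0.76), Pcgf2 (0.75) and Enpp1 (0.74), and Foxp2 to Gm14492 (0.81), Ube2e1 (0.68) and Uhrf1bp1 (0.67). No factor had another of the 10 among its nearest genes, and Pomc was the 1 peptide gene among them. Each list is the top of a ranking of such genes, over cells that differ in depth.

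All 6 neuron markers, among them Snap25 and Slc17a6, the gene of VGLUT2, reached 1 FPKM in at least 12 cells, and Slc17a6 did so in 22. Of 6 astrocyte markers, Gfap reached it in 3 cells, with 165 FPKM in cell 12, and Aqp4, Gja1, Aldh1l1, Slc1a3 and Agt in none. The summed level of the astrocyte list ran from 0 to 166 FPKM, of the 6 oligodendrocyte markers from 0.431 to 82.8 FPKM and of the 8 microglia and vessel markers from 0.0568 to 19.7 FPKM. Of the oligodendrocyte markers 5 of 6 reached 1 FPKM in some cell, Cnp and Mbp in 10 cells each, with up to 43.1 and 41.3 FPKM, and Mog was listed at 0 in every cell. Of the microglia and vessel markers 4 of 8 did so, led by Pecam1 in 5 cells. Of the 7 tanycyte and ependymal markers 5 did so, and their sum ran from 0.317 to 259 FPKM. Vim was in 14 cells, with 258 FPKM in cell 12, Foxj1 in 11, Rarres2 in 6 and Frzb in 4, and Rax, which defines tanycytes, was listed at 0 in every cell. Of the 8 pituitary markers, Gh alone reached 1 FPKM, in cell 2. Cell 12 is also the cell highest in Pomc. Without it, the rho with Pomc was 0.68 for Prdm12, -0.64 for Bsx and 0.50 for Six6. The part of transcripts of other cell types in the remaining cells was not tested. Relative depth differed 4.17-fold between cells 20 and 14, the deepest and the shallowest.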

How the data were processed

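Per the labels' protocols, neurons were sorted manually after papain digestion, their RNA was amplified with SmartSeq2, and the NuGen Ovation Rapid chemistry turned it into libraries. Per the submitters' processing notes, CASAVA 1.8, TopHat and Cufflinks were run, with the mm10 build. The values deposited by the authors are FPKM, 1 for each gene in each cell. Read depths, the annotation and other versions are not given in the sources. FPKM depends on the length used for a gene, and abundant peptide transcripts lower all other values of a cell. SmartSeq2 libraries have no molecular identifiers, so amplified copies count as reads.

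Of 23896 rows, 12 leftover spreadsheet rows without a gene (the source of all negative values), 286 identical copies and 27 rows with names turned into dates were left out. Rows of 124 symbols were summed, which gave 23373 genes; each of the 10 factors had 1 row. A gene was counted in a cell at 1 FPKM or more. Relations are Spearman rho over 23 cells with no p-value, beside the share of genes at 1 FPKM in at least 5 cells past the same limit of 0.5. Relative depth is the commonest ratio between a cell's low values and those of cell 12, in log2 bins of 0.02, for genes below 0.5 FPKM whose locus spans 500 bp or more, and steps are multiples of a gene's smallest depth-corrected value, used where low values were whole within 0.1. The FPKM sums per cell ran from 379230 to 687163. The scripts were tested on simulated data. Loci come from the deposited table, strand and overlapping genes from GENCODE M21, and promoters from RefSeq. Named genes are the 10 factors, the 4 peptide genes, up to 6 genes of each other list found in the most cells, and each factor's 3 nearest genes; Agrp, Fezf1, Esr1, 4930447C04Rik and the relatives found in no cell were named after their values were seen. Some genes that this rule selects are not reported here. The factors and lists were chosen with earlier results of these data known. Alternatives were other thresholds, rescaling, pseudocounts, each title set alone, depth or detection corrections and leaving out each cell. Scripts used numpy 2.4.6, scipy 1.17.1, pandas 2.3.3 and matplotlib 3.10.9 in Python 3.11.15.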

Additional observations from a re-analysis of the deposited data

How the results depend on the processing

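At 5 FPKM and at 10 FPKM the median cell had 4 factors in place of 6. The 6 factors found in at least 12 cells became 4 at 5 FPKM and 3 at 10 FPKM. They became 4 when 5% of the highest value in the title set was also asked for, and 5 when at least 10 steps were. The share of all genes was taken at 1 FPKM only. Title set 1 alone gave 13 combinations and title set 2 alone 8, since fewer cells were counted. The 5 pairs of a factor and a peptide gene with a rho of at least 0.5 in size became 3 in title set 1 alone, 10 in title set 2 alone, 3 with the number of genes detected regressed out and 2 with ranks centred within title sets. Leaving out each cell in turn gave 3 to 9 such pairs, with 3 without cell 20, 8 without cell 5 and 9 without cell 22. The 3 pairs among the factors became 5 with each cell rescaled to a sum of 1000000 and 15 in title set 2 alone, and leaving out each cell gave 2 to 4. The cause was not tested. A rho over 15 or 8 cells varies more than one over 23, so counts within title sets cannot be set beside the others. The share of all genes past 0.5 was taken over 23 cells in the main setting only. In title set 2, Isl1 and Prdm12 each had 0.58 with Npy, which was above 0 in cell 21 alone. Foxp2 with Sst was 0.41 in title set 2 alone, where Sst is above 0 in 1 cell only, so no sign can be read from it. In 8 other settings, Prdm12 with Pomc, Bsx with Pomc and Bsx with Prox1 stayed past 0.5 in size in all 8, Six6 with Bsx and Bsx with Prdm12 in 7, Isl1 with Kiss1 in 5, and Six6 with Pomc and Foxp2 with Sst in 1 each. Leaving out each of the 23 cells kept Bsx with Prdm12 past it in 19, Isl1 with Kiss1 in 16, Six6 with Pomc in 21 and the other 5 pairs in all 23. Isl1 with Kiss1 was weakest, at -0.33, with the number of genes detected regressed out. No paired analysis was possible because the 23 cells form 1 group. Counting steps limits Bsx and Prdm12 near 1 FPKM. The 1 FPKM limit stands for different numbers of steps in different genes. Prox1 had up to 52 steps in a cell counted as without it, and Prdm12 up to 14.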
